A study of Saccharomyces cerevisiae with 27 samples.

Results

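Heat-stressed H4-T30D cells were compared directly with heat-stressed H4-T30A cells, that is, 2 substitutions of the same histone residue under the same stress. The comparison used 6 of the 27 RNA-seq libraries of the study, chosen by their labels as 3 biological replicates of each mutant after 10 min at 39 °C. In H4-T30A cells threonine 30 of histone H4 was replaced by alanine, which cannot be phosphorylated, and in H4-T30D cells by aspartic acid, whose charge resembles that of a phosphate. Both strains were haploid MATa derivatives of BY4741 (his3Δ200 leu2Δ0 lys2Δ0 trp1Δ63 ura3Δ0 met15Δ0 can1::MFA1pr-HIS3), grown to log phase in rich medium (YPD) at 30 °C before the stress. In these strains, and in the wild-type strain of the study, the native gene pair HHT1-HHF1 was deleted with NatMX4 and the pair HHT2-HHF2 was replaced by a synthetic H3-H4 cassette marked with URA3, so the wild type also carried these alleles and the strains differed by label only in residue 30 of H4. Poly(A) RNA was sequenced, and the authors' counts of uniquely mapping reads per gene are given here as CPM, the normalised read count relative to the library size after TMM scaling. Each mutant is 1 strain, so the strain and its substitution cannot be told apart.

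Histone H4 is a core component of the nucleosome, around which DNA is wrapped, and its modified residues can change how tightly that DNA is held and which proteins reach it. When budding yeast is moved to a higher temperature, Hsf1 activates the genes of protein chaperones, Msn2 and Msn4 activate the general stress genes, and the genes of ribosome synthesis are repressed for a time. Genes near the ends of the chromosomes lie in chromatin that is silenced in part, and their transcripts are often low in rich medium.

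The coding sequence around residue 30 is shown because it is the only labelled difference between both mutants. It was read from the RefSeq annotation of the R64 assembly, in the native genes HHF1 (chrII:255562-255624, minus strand) and HHF2 (chrXIV:576787-576849, plus strand), and each window of 63 bases holds 10 codons on either side of the threonine codon, which is in capitals. The windows of the native genes differed at 2 bases, neither of them in the threonine codon, and T30A and T30D name the replacement of this threonine by alanine and by aspartic acid. The mutant codons themselves lie on the synthetic cassette, whose sequence was not used here.
HHF1: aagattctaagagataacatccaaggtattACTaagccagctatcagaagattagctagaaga
HHF2: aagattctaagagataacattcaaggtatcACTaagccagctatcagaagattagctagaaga

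The counts summed to between 13723723 and 15966533 in the H4-T30D libraries and between 14080296 and 15766079 in the H4-T30A libraries, against 10212777 to 19503694 over all 27 libraries. Of 6746 genes, 6209 had enough counts to be tested. Replicates differed by more than counting error, and across genes the log2 CPM of paired libraries correlated at Pearson's r of 0.992 to 0.995 within a mutant and 0.988 to 0.991 between mutants. The deleted markers LEU2, LYS2, MET17 (met15Δ0) and CAN1 had at most 2 counts in any of the 6 libraries. TRP1 (trp1Δ63) had 10, 9 and 17 counts in H4-T30D and 10, 6 and 1 counts in H4-T30A. The native H4 genes do not check the labels, since reads of the synthetic cassette may map to them in part. HHF1 had 21.5, 21.1 and 22.2 CPM in H4-T30D and 18.8, 18.8 and 15.1 CPM in H4-T30A (adjusted p = 0.40), while HHF2 had at most 1.03 CPM in the 6 libraries. One wild-type library stood apart: heat-stressed wild type replicate 3 had 5.31 CPM of MET17, 8.35 CPM of CAN1 and 11.9 CPM of HHF2, against at most 0.64 CPM in the other heat-stressed wild-type libraries. It does not enter the difference between the mutants but shares the estimate of the spread, so counts are also given without it. Non-stressed H4-T30D replicate 2 had 2.29 CPM of MET17, against 0 in the other non-stressed libraries of both mutants. It had 1.36 CPM of HHF2, against at most 0.996 CPM in those, and its CAN1 (0.786 CPM) was within their range. That library enters the contrast without stress, which gave 666 genes higher and 414 lower when it was left out.

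Upon heat stress, 459 of the 6209 genes tested (7.39%) differed between the mutants, 270 of them higher in H4-T30D (4.35%) and 189 lower (3.04%), by edgeR's quasi-likelihood test with a Benjamini-Hochberg adjusted p under 0.05. Most differences were small. The median log2 difference, here always H4-T30D minus H4-T30A, was 0.47 among the higher genes and -0.38 among the lower ones, and 62.6% and 78.3% of them were under 1.5-fold. The larger differences lay mainly on 1 side: 43 genes were higher past 2-fold (0.693%) and 9 were lower (0.145%). In all 270 higher genes and in 187 of the 189 lower genes the CPM of the mutants did not overlap, against 29.2% of all genes tested, and the exceptions were RPS28B and FPK1. The calls rest on these same values, so the lack of overlap describes them and adds no support. The median over all genes was -0.01. Without heat-stressed wild type replicate 3 the counts were 285 higher and 201 lower. With any 1 of the 6 libraries left out 183 to 227 genes were higher and 119 to 159 lower, the lower count being 125, 123 and 119 without H4-T30A replicate 1, 2 and 3. When the libraries were scaled by their totals instead of TMM, 219 genes were higher and 253 lower, so the balance of directions depended on the scaling. RNA-seq counts are relative, and in these bulk cultures fewer cells with a transcript and less RNA per cell cannot be told apart.

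**Figure D1:**
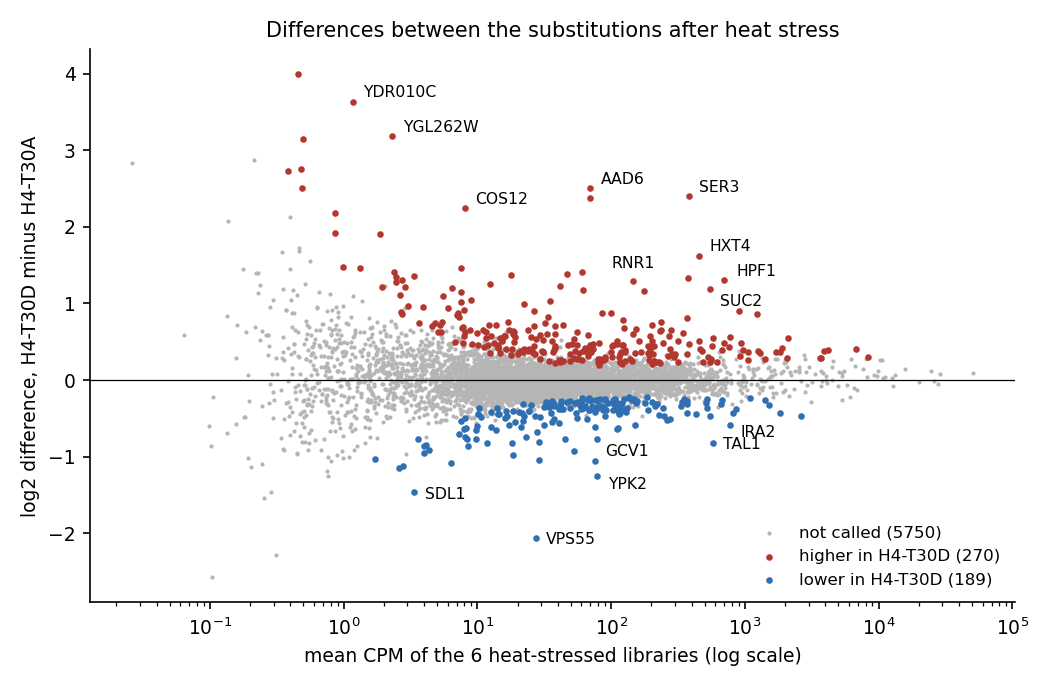
Each point is 1 of the 6209 genes tested, placed by its mean CPM over the 6 heat-stressed libraries (horizontal, log scale) and its log2 difference, H4-T30D minus H4-T30A (vertical). Red points are the 270 genes called higher in H4-T30D and blue points the 189 called lower. The largest differences are positive, and VPS55 is the lowest called gene, at -2.06.

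The largest differences among abundant transcripts were in genes of aryl-alcohol, serine and glucose metabolism, all higher in H4-T30D. AAD6, a putative aryl-alcohol dehydrogenase, had 119, 110 and 127 CPM in H4-T30D and 20.3, 21.8 and 20.4 CPM in H4-T30A, a log2 difference of 2.51 ± 0.10 (SE, n = 3 per group, adjusted p = 5.3e-18). Wild-type cells upon heat had 16.8 to 20.4 CPM, as low as H4-T30A. The neighbouring entry YFL057C, which has no position in the annotation used here, had 118, 112 and 118 CPM against 22.2, 21.3 and 23.3 CPM (log2 difference 2.38 ± 0.11, adjusted p = 1.1e-15).

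SER3, which encodes 3-phosphoglycerate dehydrogenase at the first step of serine synthesis, had 664, 603 and 663 CPM in H4-T30D and 116, 115 and 133 CPM in H4-T30A (log2 difference 2.40 ± 0.08, adjusted p = 2.9e-19). The wild type lay between the mutants, at 342 to 389 CPM. SER3 overlaps the noncoding gene YNCE0017W in the annotation, and reads of both cannot be told apart in these counts. HXT4, a hexose transporter, had 715, 675 and 666 CPM against 242, 227 and 198 CPM (log2 difference 1.62 ± 0.09, adjusted p = 2.6e-14), and 283 to 314 CPM in the wild type. For HXT4, as for AAD6, every heat-stressed H4-T30D library was above every heat-stressed H4-T30A and wild-type library. Each of these calls held when any 1 of the 6 libraries was left out.

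The other members of the 10 largest differences had few reads. YGL262W, a gene of unknown function near the left end of chromosome VII, had 51, 58 and 57 counts in H4-T30D and 6, 9 and 4 counts in H4-T30A (log2 difference 3.19 ± 0.33, adjusted p = 4.5e-08). YDR010C, listed as a dubious reading frame, had 24, 38 and 24 counts against 3, 4 and 0 counts (3.64 ± 0.52, adjusted p = 1.4e-05). Groups that do not overlap were a condition for naming both genes, and the size of these differences rests on single-digit counts in H4-T30A. YCL074W, a retrotransposon fragment, had 2.50, 3.08 and 3.33 CPM against 0.756, 0.982 and 0.621 CPM (1.91 ± 0.33). YPR050C (1.93 ± 0.49, adjusted p = 0.011) and 15S_rRNA, the mitochondrial small-subunit rRNA (2.17 ± 0.68, adjusted p = 0.047), were not stable: the first call was lost without H4-T30A replicate 3 and the second when any library but H4-T30D replicate 2 was left out.

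A set of well-expressed genes followed with differences a little over 2-fold. HPF1, a cell wall mannoprotein named here after its values were seen, had 997, 891 and 1086 CPM against 413, 404 and 389 CPM (log2 difference 1.30 ± 0.12, adjusted p = 4.3e-09). SUC2, the invertase that splits sucrose outside the cell, had 787, 676 and 820 CPM against 341, 338 and 325 CPM (1.19 ± 0.10, adjusted p = 2.8e-10). AZR1, a plasma membrane transporter linked to azole resistance, had 246, 228 and 256 CPM against 111, 114 and 103 CPM (1.16 ± 0.10, adjusted p = 2.5e-09). In AZR1 both mutants were above the wild type, which had 20.2 to 28.5 CPM, whereas for HPF1 and SUC2 the wild type (424 to 548 and 351 to 415 CPM) was close to H4-T30A. SUC2 and AZR1 were also chosen after their values were seen.

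Genes near the chromosome ends were higher in H4-T30D. Of the 113 tested genes within 10 kb of an end, 33 were higher (29.2%, against 4.35% of all genes) and 0 were lower by edgeR. At an unadjusted p under 0.05 these counts were 44 and 1, and DESeq2 gave 33 and 0. Their median log2 difference was 0.21. The share of higher genes declined to 11.5% at 10 to 20 kb, 10.9% at 20 to 30 kb, 5.04% at 30 to 40 kb and 1.25% at 40 to 50 kb. Within 20 kb, 47 of 235 genes were higher (20.0%), against 206 of 5601 genes farther in (3.68%). The higher genes were spread over the genome, since 21 of 32 chromosome arms had at least 1 of them within 20 kb. The 3 lower genes within 20 kb were COS9, FDC1 and SRY1. Of the list of 64 outermost tested genes of the arms, 19 were higher and 0 lower by edgeR (unadjusted, 23 and 1, and DESeq2 19 and 0), with a median of 0.07 and with 14 to 18 higher when any 1 of the 6 libraries was left out. In this list 29.7% were called, against 7.39% of all genes.

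**Figure D2:**
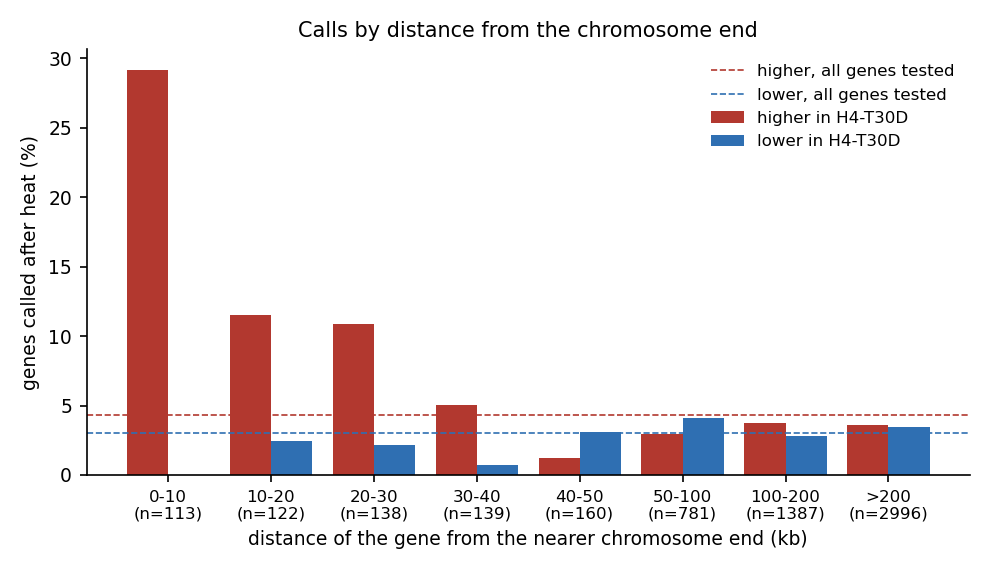
Bars give the percentage of tested genes called higher (red) or lower (blue) in H4-T30D upon heat, by distance from the nearer chromosome end, with the number of genes tested under each pair of bars. Dashed lines are the shares among all genes, 4.35% and 3.04%. The share of higher genes is 29.2% within 10 kb and falls below the dashed line at 40 to 50 kb.

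The COS genes, a subtelomeric family of membrane proteins that act in the sorting of cell-surface proteins to the vacuole, differed in nearly every member. Of 11 members tested, 9 were higher and 1 lower (90.9% called, against 7.39% of all genes), and the median log2 difference was 0.46. COS12, 2.79 kb from a chromosome end, had 13.8, 13.2 and 13.2 CPM in H4-T30D and 2.61, 2.57 and 3.24 CPM in H4-T30A (log2 difference 2.25 ± 0.22, adjusted p = 1.4e-08), against 0.320 to 1.43 CPM in the wild type. COS1 had 142, 121 and 125 CPM against 74.1, 72.9 and 64.4 CPM (0.88 ± 0.09, adjusted p = 4.5e-08), and COS8 had 190, 166 and 168 CPM against 124, 110 and 110 CPM (0.61 ± 0.07, adjusted p = 8.6e-07). COS9, 14.5 kb from an end, went the other way, with 50.1, 42.1 and 45.5 CPM against 71.5, 62.2 and 61.2 CPM (-0.50 ± 0.09, adjusted p = 0.00021). Several COS genes are near-identical in sequence, so uniquely mapping reads cover them unevenly and the counts of single members are uncertain. Without H4-T30D replicate 1, 6 of the 11 were higher.

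The aryl-alcohol dehydrogenase family was examined because of AAD6, after its values were seen, and is given without a test of the group. AAD15, 1.65 kb from an end, had 11.6, 11.5 and 10.3 CPM against 4.05, 3.40 and 4.62 CPM (log2 difference 1.46 ± 0.17, adjusted p = 3.3e-07). AAD3, 1.64 kb from an end, had 31.5, 28.7 and 28.5 CPM against 15.5, 13.8 and 15.2 CPM (1.00 ± 0.10, adjusted p = 2.4e-08). The groups were well apart in both genes. AAD4, AAD10 and AAD14, which lie 16.1 to 17.6 kb from an end, did not pass the test (0.12 ± 0.08, 0.14 ± 0.10 and 0.03 ± 0.09). Members of this family are similar in sequence, which adds the same uncertainty.

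VPS55 had the largest difference in the other direction. It encodes a membrane protein of late endosomes that acts in transport to the vacuole, and it had 11.2, 9.92 and 10.6 CPM in H4-T30D and 47.8, 45.0 and 39.9 CPM in H4-T30A (log2 difference -2.06 ± 0.10, adjusted p = 5.5e-16). The wild type upon heat had 17.5 to 18.3 CPM, between the mutants. Without stress the mutants overlapped, at 59.9 to 62.1 and 60.7 to 64 CPM, and VPS55 fell by 2.53 on the log2 scale upon heat in H4-T30D and by 0.49 in H4-T30A (adjusted p = 1.0e-20 and 2.9e-06).

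YPK2, a protein kinase of the cell integrity and sphingolipid pathways, had 43.2, 47.8 and 48.6 CPM against 116, 110 and 107 CPM (log2 difference -1.25 ± 0.08, adjusted p = 6.2e-13), with 78.2 to 83.5 CPM in the wild type. KEI1, a subunit of the synthase of inositol phosphorylceramide, a sphingolipid, had 21.6, 17.4 and 17.7 CPM against 40.05, 37.6 and 39.5 CPM (-1.04 ± 0.15, adjusted p = 8.5e-06). In both genes the 3 values of each mutant were well apart from those of the other. TAL1, the transaldolase of the pentose phosphate pathway, had 412, 411 and 424 CPM against 776, 716 and 711 CPM (-0.82 ± 0.08, adjusted p = 1.6e-08). TUL1, a subunit of a Golgi ubiquitin ligase, had 36.4, 36.0 and 36.4 CPM against 70.1, 70.4 and 66.7 CPM (-0.93 ± 0.10, adjusted p = 4.6e-08). TAL1 and TUL1 were chosen after their values were seen.

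Of the 9 genes lower past 2-fold, the rest were less abundant. IME1, the activator of meiosis, had 4.74, 3.69 and 3.81 CPM against 7.69, 8.53 and 9.86 CPM (log2 difference -1.08 ± 0.20, adjusted p = 0.00046), and CTR3, a copper transporter, had 1.22, 1.92 and 1.70 CPM against 3.37, 3.47 and 3.79 CPM (-1.14 ± 0.24, adjusted p = 0.0021). SDL1 had 1.83, 1.85 and 1.70 CPM against 5.36, 5.36 and 4.21 CPM (-1.47 ± 0.19, adjusted p = 3.1e-06). SDL1 and YIL168W are adjacent parts of an interrupted serine dehydratase gene in the reference strain. The groups did not overlap in any of these, which the rule for naming them required. YIL168W (-1.12 ± 0.28, adjusted p = 0.0080) lost its call without H4-T30D replicate 3 or H4-T30A replicate 2, and ATG10, an autophagy enzyme (-1.03 ± 0.32, adjusted p = 0.043), lost it when any library but H4-T30D replicate 2 was left out.

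Several genes of glycine cleavage and of the transfer of one-carbon units on folate were lower in H4-T30D. They were picked after their values were seen, other genes of this metabolism were not counted, and no test of a group was made. GCV1, the T subunit of the glycine decarboxylase complex, was among the 9 genes lower past 2-fold, with 50.3, 48.9 and 48.4 CPM in H4-T30D and 105, 98.6 and 102 CPM in H4-T30A (log2 difference -1.05 ± 0.07, adjusted p = 2.8e-12). The wild type had 101 to 115 CPM, as high as H4-T30A. GCV2, its P subunit, had 132, 110 and 120 CPM against 191, 180 and 175 CPM (-0.59 ± 0.08, adjusted p = 3.8e-06), and GCV3, its H subunit, had 77.1, 94.6 and 89.0 CPM against 133, 135 and 139 CPM (-0.64 ± 0.13, adjusted p = 0.0012). These 3 subunits were thus lower with no overlap between the mutants, and no other subunit of the complex was examined. SHM2, the cytosolic serine hydroxymethyltransferase, had 330, 283 and 333 CPM against 446, 430 and 402 CPM (-0.43 ± 0.10, adjusted p = 0.0035). MTD1, a methylenetetrahydrofolate dehydrogenase, had 26.9, 23.6 and 22.7 CPM against 32.9, 33.2 and 36.4 CPM (-0.48 ± 0.08, adjusted p = 0.00014). ADE17, which uses a folate one-carbon unit in purine synthesis, had 92.3, 84.8 and 90.2 CPM against 147, 141 and 126 CPM (-0.63 ± 0.09, adjusted p = 6.4e-06). SER3, which supplies serine to this pathway, was higher, as given above.

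Several of these genes carry TGACTC, the core of the site that Gcn4, the activator of amino acid synthesis genes, is known to bind. The windows below are printed for 4 members with 1 match each, and run from 250 bases before to 50 bases after the annotated gene start on the gene's strand, in RefSeq's R64 assembly. They are GCV1 (chrIV:485316-485615, minus strand), GCV2 (chrXIII:637250-637549, plus strand), SHM2 (chrXII:259352-259651, minus strand) and ADE17 (chrXIII:509231-509530, minus strand), and capitals mark TGACTC or its reverse complement GAGTCA.
GCV1: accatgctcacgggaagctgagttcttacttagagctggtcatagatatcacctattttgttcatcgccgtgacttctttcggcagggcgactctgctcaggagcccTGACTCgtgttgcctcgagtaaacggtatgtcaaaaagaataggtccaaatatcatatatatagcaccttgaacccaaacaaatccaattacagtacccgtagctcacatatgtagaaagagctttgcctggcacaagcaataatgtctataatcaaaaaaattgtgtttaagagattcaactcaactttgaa
GCV2: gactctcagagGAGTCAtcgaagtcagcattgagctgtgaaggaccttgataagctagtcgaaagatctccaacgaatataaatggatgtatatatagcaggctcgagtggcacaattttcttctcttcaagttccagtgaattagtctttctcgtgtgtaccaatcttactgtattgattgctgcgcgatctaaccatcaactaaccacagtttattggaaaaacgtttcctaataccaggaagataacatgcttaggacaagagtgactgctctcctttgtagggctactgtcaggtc
SHM2: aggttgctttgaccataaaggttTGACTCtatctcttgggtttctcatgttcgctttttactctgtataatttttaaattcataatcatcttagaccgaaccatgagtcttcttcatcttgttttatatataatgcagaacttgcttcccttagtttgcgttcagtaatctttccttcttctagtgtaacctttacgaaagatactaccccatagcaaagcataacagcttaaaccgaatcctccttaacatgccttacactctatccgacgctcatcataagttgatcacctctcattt
ADE17: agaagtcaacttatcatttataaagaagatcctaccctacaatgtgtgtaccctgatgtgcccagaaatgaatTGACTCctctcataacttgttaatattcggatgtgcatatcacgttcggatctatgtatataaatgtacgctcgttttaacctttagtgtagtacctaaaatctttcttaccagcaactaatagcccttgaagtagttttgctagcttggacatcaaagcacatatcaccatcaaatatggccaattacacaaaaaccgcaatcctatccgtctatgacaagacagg

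The match begins 143 bases before the start of GCV1, 239 before that of GCV2, 227 before that of SHM2 and 177 before that of ADE17. Over all windows, searched on both strands, TGACTC was found in 14.0% of the 186 windows of genes lower in H4-T30D and in 4.42% of the 249 windows of higher genes, against 8.08% of all 5801 tested protein-coding genes with a window. The stress element AGGGG was found in 23.7%, 27.3% and 21.8% of the same sets, the heat shock element core GAANNTTC in 14.0%, 8.43% and 11.9%, and the cell cycle box ACGCGT in 4.3%, 1.61% and 3.12%. These shares describe letters in a window, and whether a factor bound there was not measured.

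**Figure D3:**
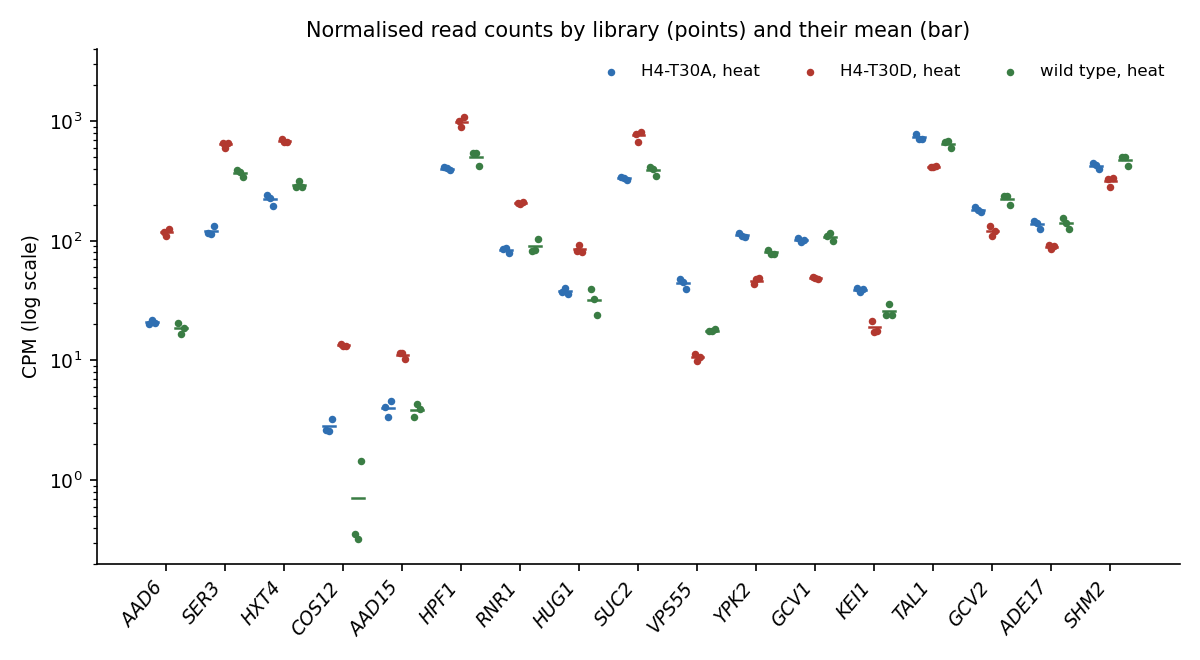
Points are single libraries and short bars their means, in CPM on a log scale, for heat-stressed H4-T30A (blue), H4-T30D (red) and wild-type cells (green), 3 libraries each. Genes from AAD6 to SUC2 were higher in H4-T30D and genes from VPS55 to SHM2 lower. The wild type lies between the mutants for SER3 (342 to 389 CPM), VPS55 (17.5 to 18.3 CPM) and YPK2 (78.2 to 83.5 CPM) and beside H4-T30A for AAD6 (16.8 to 20.4 CPM) and GCV1 (101 to 115 CPM).

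The general stress genes activated by Msn2 and Msn4 were higher in H4-T30D in part. Of a list of 35, 10 were higher and 1 was lower (31.4% called, against 7.39% of all genes). The median log2 difference was 0.12, against -0.01 over all genes. RTN2, a reticulon of the endoplasmic reticulum, had 1212, 1163 and 1128 CPM in H4-T30D and 642, 601 and 638 CPM in H4-T30A (log2 difference 0.90 ± 0.07, adjusted p = 1.6e-10). HSP31, a methylglyoxalase and chaperone, had 484, 456 and 477 CPM against 266, 263 and 278 CPM (0.81 ± 0.07, adjusted p = 1.4e-09). NQM1, a paralog of transaldolase, had 272, 293 and 286 CPM against 178, 174 and 196 CPM (0.64 ± 0.06, adjusted p = 1.4e-08). NQM1 thus differed in the opposite direction from TAL1. MSC1 (0.55 ± 0.08), SIP18, ALD3, YGP1, CTT1, HXK1 and GRE3 were the other higher members. Between 8 and 9 members were higher when any 1 of the 6 libraries was left out, and 15 when only the libraries of both mutants, with and without stress, were fitted.

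ALD3, the aldehyde dehydrogenase whose promoter drove a heat reporter of the study, had 1117, 1099 and 1077 CPM in H4-T30D and 847, 800 and 870 CPM in H4-T30A (log2 difference 0.39 ± 0.08, adjusted p = 0.0012). The wild type was above both mutants, at 1524 to 1733 CPM. CTT1, the cytosolic catalase, had 1954, 1821 and 1966 CPM against 1455, 1466 and 1539 CPM (0.36 ± 0.09, adjusted p = 0.0066), and again the wild type was higher (2030 to 2319 CPM). HXT5, a hexose transporter of slow growth and stress, was the lower member, with 231, 208 and 199 CPM against 279, 262 and 284 CPM (-0.37 ± 0.08, adjusted p = 0.0036) and 502 to 584 CPM in the wild type. For all 3 genes both mutants were below every wild-type library, and the mutants did not overlap each other. By the same edgeR test, CTT1 in H4-T30D was not called against wild type (-0.20 ± 0.09, adjusted p = 0.13). In H4-T30A it was (-0.56 ± 0.09, adjusted p = 0.00012). ENO1, an enolase used as a loading control in the study's northern blots, had 7599, 7158 and 8352 CPM against 6165, 5908 and 5374 CPM (0.41 ± 0.12, adjusted p = 0.033), a call that was lost when any library but H4-T30D replicate 2 was left out.

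Other stress genes that the study or the lists single out did not pass the test. DDR2, a small protein of the multistress response, had 594, 669 and 620 CPM in H4-T30D and 661, 652 and 516 CPM in H4-T30A (log2 difference 0.04 ± 0.09, adjusted p = 0.85). HSP12, a membrane-associated stress protein, had 3140, 3606 and 3566 CPM against 3254, 3280 and 3212 CPM (0.08 ± 0.08, adjusted p = 0.65). HSP82, the inducible Hsp90 whose promoter drove another heat reporter of the study, had 8307, 8443 and 8207 CPM against 8118, 8127 and 8099 CPM (0.04 ± 0.07, adjusted p = 0.84). The mutants overlapped in DDR2 and HSP12, and in HSP82 every H4-T30D library was slightly above every H4-T30A library. By the same edgeR test, both mutants were called lower than heat-stressed wild type in 2 of these genes. For DDR2 the log2 difference was -0.40 in H4-T30D (adjusted p = 0.0032) and -0.44 in H4-T30A (adjusted p = 0.0027). For HSP12 it was -0.31 (adjusted p = 0.010) and -0.39 (adjusted p = 0.0030). HSP82 was called in neither mutant (-0.02 and -0.05). The standard errors of these 3 genes were of the same size as those of the called stress genes.

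Of 23 chaperone genes activated by Hsf1, 1 was higher and 3 were lower (17.4% called, against 7.39% of all genes), with a median of -0.04, and in 11 of the 23 the mutants did not overlap, against 29.2% of all genes. APJ1, a nuclear J-domain co-chaperone, had 348, 394 and 362 CPM against 505, 486 and 505 CPM (log2 difference -0.44 ± 0.07, adjusted p = 8.5e-05), and MDJ1, the J-domain co-chaperone of mitochondria, had 689, 768 and 771 CPM against 952, 946 and 999 CPM (-0.38 ± 0.07, adjusted p = 0.00065). In both the H4-T30A libraries were all higher. CUR1, a sorting factor of misfolded proteins, was the other lower member (-0.30 ± 0.07) and lost its call without H4-T30D replicate 3 or H4-T30A replicate 3. CPR6, a cyclophilin co-chaperone of Hsp90, was the higher one (0.28 ± 0.09, adjusted p = 0.040), a call lost when any 1 of the 6 libraries was left out.

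Defence against oxidants and the proteasome were on the higher side. Of 26 oxidative stress genes 6 were higher and 1 was lower (26.9% called, against 7.39% of all genes). Their median was 0.09, and 3 to 5 were higher with any 1 of the 6 libraries left out. OYE3, an NADPH oxidoreductase, had 41.1, 44 and 44.6 CPM against 21.2, 24.6 and 27.3 CPM (log2 difference 0.83 ± 0.13, adjusted p = 4.9e-05), and TRX1, a thioredoxin, was the lower member, with 103, 111 and 119 CPM against 158, 157 and 127 CPM (-0.41 ± 0.08, adjusted p = 0.00082). Of 34 proteasome genes 6 were higher and 0 lower by edgeR (17.6% called), with a median of 0.17. At an unadjusted p under 0.05 the counts were 19 and 0, while DESeq2 gave 14 and 0. RPN4, the activator of the proteasome genes, had 416, 407 and 409 CPM against 319, 318 and 340 CPM (0.33 ± 0.06, adjusted p = 0.00034), and PRE2, a catalytic subunit, had 323, 314 and 336 CPM against 256, 273 and 259 CPM (0.30 ± 0.06, adjusted p = 0.0011). The size of this group of calls was not stable: with any 1 of the 6 libraries left out it was 2 to 4, with library totals as the scaling 2, and with only the mutant libraries fitted 18.

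Among the genes of growth, those of ribosome assembly and of the ribosome itself had medians on opposite sides of 0. Of 109 ribosome biogenesis genes, 4 were higher and 0 lower by edgeR (unadjusted, 15 and 2, and DESeq2 6 and 0), with a median of 0.18, and with any 1 of the 6 libraries left out 1 to 5 were higher. Only 3.67% were thus called, against 7.39% of all genes. PNO1, an assembly factor of the small subunit, had 20.0, 20.5 and 23.4 CPM in H4-T30D and 12.9, 12.4 and 12.3 CPM in H4-T30A (log2 difference 0.76 ± 0.10, adjusted p = 3.2e-06). Of 137 cytosolic ribosomal protein genes, 2 were higher and 3 lower (3.65% called), with a median of -0.07, but 4 were higher and 17 lower when only the mutant libraries were fitted, and 4 and 18 with library totals as the scaling. Their median in single H4-T30D libraries, against the H4-T30A mean, ran from -0.17 to 0.04 and so spanned 0. RPL22B, a large-subunit protein, had 8.93, 6.31 and 8.44 CPM against 3.98, 4.23 and 4.14 CPM (0.94 ± 0.18, adjusted p = 0.00087), and RPS9A, a small-subunit protein, had 43.0, 39.5 and 45.7 CPM against 31.6, 30.7 and 27.4 CPM (0.51 ± 0.10, adjusted p = 0.00090). Many ribosomal proteins are encoded by a pair of near-identical genes, so counts of single copies are uncertain. The 56 mitochondrial ribosomal protein genes had a median of 0.13, with 3 higher and 0 lower by edgeR (5.36% called, unadjusted, 13 and 0, and DESeq2 6 and 0) and none higher with library totals as the scaling. Of 27 genes of RNA polymerases I and III, 3 were higher and 1 lower (14.8% called, median 0.09). RPA49, a subunit of RNA polymerase I, had 7.64, 9.69 and 10.1 CPM against 5.50, 5.14 and 4.48 CPM (0.85 ± 0.19, adjusted p = 0.0030). Of 38 translation factors, 1 was higher and 1 lower (5.26% called, median -0.01).

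Nucleotide synthesis held some of the larger differences. RNR1, the large subunit of ribonucleotide reductase, had 206.5, 202.5 and 210.0 CPM in H4-T30D and 84.7, 87.8 and 79.4 CPM in H4-T30A (log2 difference 1.30 ± 0.08, adjusted p = 8.2e-13), and the wild type was beside H4-T30A, at 82.0 to 104 CPM. HUG1, an inhibitor of the reductase that is induced by DNA damage, had 82.9, 92.2 and 80.9 CPM against 37.2, 40.2 and 35.8 CPM (1.18 ± 0.12, adjusted p = 4.4e-08). RNR4, a small subunit, had 936, 813 and 1028 CPM against 646, 639 and 599 CPM (0.56 ± 0.10, adjusted p = 0.00017). The other subunit genes, named after their values were seen, RNR2 (0.26 ± 0.09, adjusted p = 0.10) and RNR3 (-0.07 ± 0.08, adjusted p = 0.71), did not pass the test. RNR2 had 752, 674 and 819 CPM against 639, 647 and 592 CPM, with no overlap. It was called under 4 alternatives, among them library totals as the scaling and a fit of only the mutant libraries. Of the 31 genes of cyclins and the cell cycle, which include RNR1, HUG1 and RNR4, 4 were higher and 1 lower (16.1% called, against 7.39% of all genes, median 0.05). Of 31 genes of purine and pyrimidine synthesis and uptake, 8 were higher and 3 lower (35.5% called). Their median was 0.08, with 5 to 8 higher when any 1 of the 6 libraries was left out. IMD4, an IMP dehydrogenase, had 297, 260 and 327 CPM against 172, 182 and 167 CPM (0.76 ± 0.10, adjusted p = 4.7e-06), and FUI1, the uridine permease, had 23.2, 21.6 and 23.1 CPM against 13.3, 15.5 and 15.2 CPM (0.63 ± 0.11, adjusted p = 0.00027). The lower members were ADE17 and MTD1, given above, and ADE6, whose call was lost when any 1 of the 6 libraries was left out. IMD4 has near-identical paralogs and overlaps the noncoding gene YNCM0005C, so its counts are uncertain.

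Genes of sugar, phosphate and iron uptake were called in both directions. Of 26 genes of hexose transport and sensing, 3 were higher (HXT4, HXT3 and HXT2) and 1 was lower (MIG3), with a median of 0.06 (15.4% called, against 7.39% of all genes). The transporter gene HXT5, lower as given above, was counted with the general stress genes and not in this list. HXT2, a high-affinity transporter, had 2305, 1976 and 2188 CPM against 1670, 1598 and 1552 CPM (log2 difference 0.42 ± 0.10, adjusted p = 0.0042), and MIG3, a transcriptional repressor related to Mig1, had 6.02, 6.69 and 6.82 CPM against 10.5, 8.91 and 10.5 CPM (-0.62 ± 0.12, adjusted p = 0.00082). Of 26 phosphate genes 2 were higher and 3 lower (median 0.03, 19.2% called). PHO3, a secreted acid phosphatase that releases thiamine, had 529, 494 and 597 CPM against 219, 216 and 207 CPM (1.33 ± 0.09, adjusted p = 6.4e-12), and its neighbour PHO5, the phosphate-repressible acid phosphatase, had 130, 113 and 147 CPM against 93.8, 92.1 and 87.6 CPM (0.51 ± 0.10, adjusted p = 0.0010). PHO3 and PHO5 are close in sequence. PHM7, a membrane protein of the phosphate list, was lower, with 230, 218 and 230 CPM against 324, 310 and 328 CPM (-0.50 ± 0.07, adjusted p = 1.9e-05).

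Of 29 iron genes 6 were higher and 1 lower (24.1% called, against 7.39% of all genes), with a median of 0.10 and 75.9% of members above 0, against 47.2% of all genes. FIT2 and FIT3, cell wall proteins that retain iron-siderophores, differed alike: FIT2 had 322, 338 and 378 CPM against 226, 232 and 200 CPM (log2 difference 0.66 ± 0.09, adjusted p = 6.4e-06) and FIT3 had 276, 280 and 311 CPM against 188, 186 and 175 CPM (0.66 ± 0.09, adjusted p = 7.3e-06). FRE1, a ferric reductase, had 36.7, 42.7 and 40.7 CPM against 25.2, 23.9 and 22.3 CPM (0.75 ± 0.16, adjusted p = 0.0021). No H4-T30A library reached an H4-T30D library in these 3 genes. Of 10 copper genes, 0 were higher by edgeR (unadjusted, 2, and DESeq2 2) and 1, CTR3, was lower (10.0% called, median 0.02).

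Amino acid synthesis showed calls in both directions. Of 70 genes 2 were higher and 5 lower (10.0% called, against 7.39% of all genes, median -0.03). The higher ones were SER3 and ILV5, an enzyme of branched-chain amino acid synthesis, which had 251, 233 and 271 CPM against 154, 158 and 148 CPM (log2 difference 0.72 ± 0.10, adjusted p = 6.6e-06). LEU1, an enzyme of leucine synthesis, was lower, with 75.3, 70.8 and 80.9 CPM against 106, 104 and 103 CPM (-0.46 ± 0.07, adjusted p = 2.5e-05). All strains carried the leu2Δ0 and lys2Δ0 deletions. Of 35 genes of sulfate assimilation and methionine, 1 was higher and 3 lower (11.4% called, median -0.02). SAM3, the S-adenosylmethionine permease, had 59.0, 53.5 and 61.9 CPM against 95.2, 99.4 and 102 CPM (-0.77 ± 0.12, adjusted p = 7.3e-05).

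Genes of the cell wall were called in both directions, 4 higher and 3 lower of 35 (20.0% called, against 7.39% of all genes), with a median of 0.03. CWP2, a major mannoprotein of the wall, had 1490, 1533 and 1783 CPM against 962, 921 and 762 CPM (log2 difference 0.86 ± 0.11, adjusted p = 3.1e-06), and PST1, a wall protein induced by wall damage, had 579, 510 and 521 CPM against 395, 391 and 347 CPM (0.51 ± 0.07, adjusted p = 1.7e-05). KDX1, a kinase-like protein of the cell wall integrity pathway, was lower, with 8.46, 8.69 and 8.60 CPM against 14.6, 14.9 and 16.1 CPM (-0.83 ± 0.12, adjusted p = 1.7e-05). The mutants did not overlap in any of the 3.

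Genes of the Ste11 pathways were called at about the share of all genes. Ste11 is a kinase shared by the pheromone and osmosensing (HOG) pathways, and of 43 genes of these pathways 0 were higher by edgeR (unadjusted, 3, and DESeq2 0) and 3 were lower, with a median of -0.05 and 6.98% called, against 7.39% of all genes. FUS3, the kinase of the pheromone pathway, had 16.3, 13.8 and 16.8 CPM against 24.1, 22.4 and 22.1 CPM (log2 difference -0.55 ± 0.09, adjusted p = 0.00020). SSK1, a response regulator of the HOG pathway, had 86.0, 85.9 and 82.7 CPM against 112, 102 and 99.5 CPM (-0.30 ± 0.06, adjusted p = 0.0020), and PRM5, a pheromone-regulated membrane protein, was the third (-0.26 ± 0.06, adjusted p = 0.0045). STE11 itself had 40.1, 39.6 and 41.8 CPM against 37.2, 36.5 and 32.7 CPM and did not pass the test (0.19 ± 0.07, adjusted p = 0.12). Of the 7 genes specific to MATa cells 3 were lower (42.9% called), with a median of -0.30, and 3 were above 0 without a call. Their median in single H4-T30D libraries, against the H4-T30A mean, ran from -0.34 to -0.008 and so came close to 0. MFA2, the precursor of a-factor, had 53.2, 67.3 and 58.5 CPM against 98.9, 91.0 and 83.1 CPM (-0.61 ± 0.11, adjusted p = 0.00044), and only its call held when any 1 of the 6 libraries was left out. Of 4 genes specific to MATalpha cells 0 were called by edgeR (unadjusted 0, and DESeq2 0).

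Of 35 genes of stress transcription factors and protein kinase A, 1 was higher and 3 lower (11.4% called, against 7.39% of all genes, median -0.08). IRA2, which restrains Ras and so protein kinase A, had 692, 603 and 574 CPM against 950, 948 and 904 CPM (log2 difference -0.58 ± 0.09, adjusted p = 5.6e-05), and its groups did not overlap. The other calls of the list, TOR1 and CIN5 lower and SCH9 higher, were each lost with 3 or more of the 6 libraries left out in turn. Of 11 histone genes only HTA1, an H2A gene, was called (9.09%), with 848, 899 and 893 CPM against 684, 640 and 627 CPM (0.44 ± 0.08, adjusted p = 0.00022). Of 26 genes of silencing factors and histone chaperones, 0 were called by edgeR (unadjusted, 1 higher and 1 lower, and DESeq2 0), with a median of -0.05.

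Calls in the other lists were few. Of 42 tested meiosis and sporulation genes, 4 were higher and 1, IME1, was lower (11.9% called, against 7.39% of all genes). IME4, an RNA methyltransferase, had 5.14, 4.31 and 4.95 CPM against 1.99, 2.19 and 1.45 CPM (log2 difference 1.36 ± 0.23, adjusted p = 0.00018), but it overlaps the noncoding gene YNCG0006C and reads of both cannot be told apart. Of 56 genes of the TCA cycle and respiratory chain 4 were higher, CYC1, the major cytochrome c, most (0.42 ± 0.08, adjusted p = 0.00052), and 0 were lower by edgeR (unadjusted, 1, and DESeq2 0), with 1 to 3 higher when any 1 of the 6 libraries was left out. The share called in this list, 7.14%, was near that of all genes. Higher and lower calls were 2 and 1 of 27 in glycolysis and fermentation (11.1% called), 1 and 2 of 22 in peroxisomal fatty acid oxidation (13.6%) and 1 and 2 of 32 in autophagy (9.38%). Of 27 ergosterol genes 3 were higher and none lower (11.1% called). Glycogen metabolism had 2 lower genes of 12, trehalose metabolism 1 of 7, glycerol and polyol metabolism 1 of 12, where GPD1 (-0.32 ± 0.08) lost its call without H4-T30D replicate 1 or H4-T30A replicate 1, and endoplasmic reticulum folding 1 of 20, with no higher gene in these 4 lists. Their shares called were 16.7%, 14.3%, 8.33% and 5.0% in this order. None of the 29 genes on the list of the mitochondrial genome passed the filter on low counts. The mitochondrial 15S_rRNA, given above, was tested but was not on this list.

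**Figure D4:**
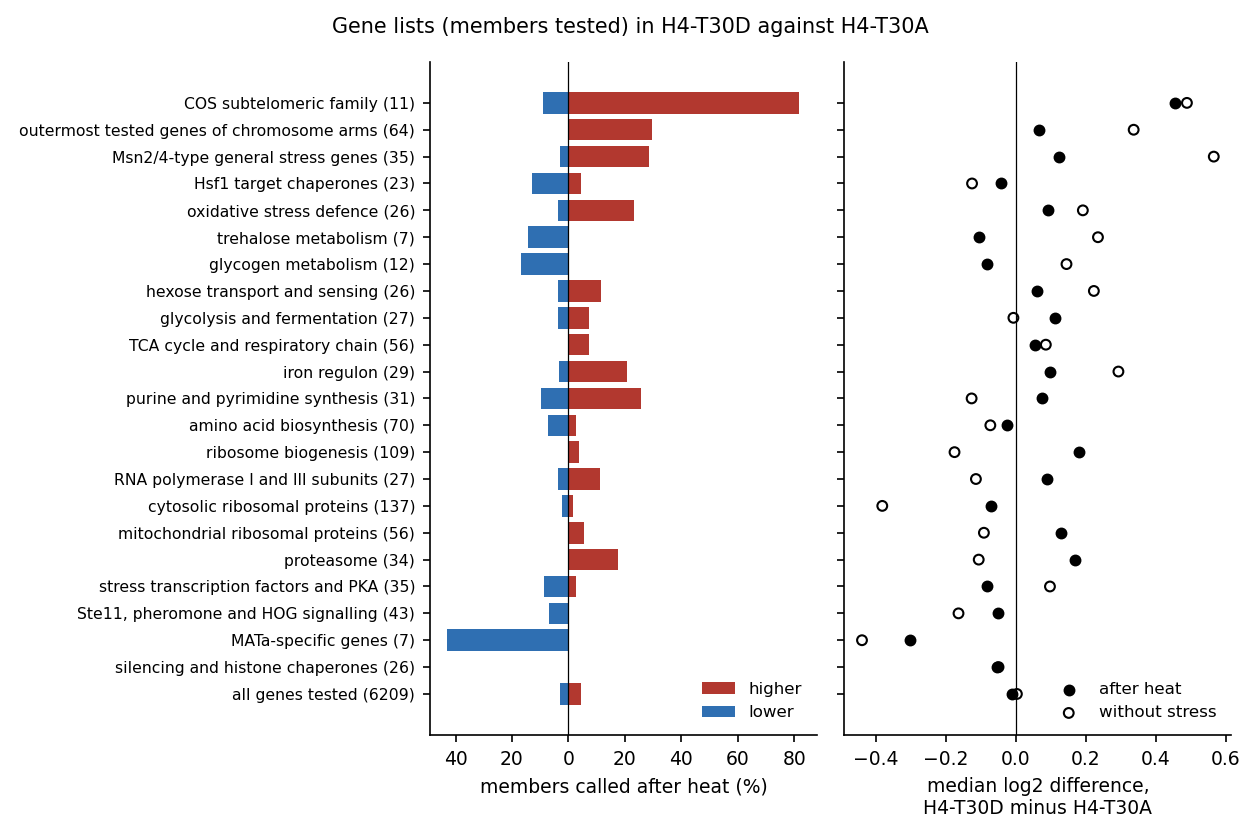
Left, the percentage of each list's tested members (number in parentheses) called higher (red, to the right) or lower (blue, to the left) in H4-T30D upon heat. Right, the median log2 difference of the list upon heat (filled) and without stress (open). The COS family stands highest, with 9 of 11 members called higher, and the MATa-specific genes lowest, with a median of -0.30 upon heat and -0.44 without stress.

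The genes that wild-type cells changed upon heat were called in both directions. In wild type, 978 genes were induced past 2-fold and 955 repressed past 2-fold (tested against this fold, adjusted p under 0.05), a contrast of wild-type libraries only, although all 27 libraries set the filter and the estimate of the spread. Of the induced genes 76 were higher in heat-stressed H4-T30D (7.77%) and 63 lower (6.44%), with a median log2 difference of -0.04. Of the repressed genes 59 were higher (6.18%) and 15 lower (1.57%), with a median of 0.05, and of the other 4276 genes 135 were higher and 111 lower, with a median of -0.01. The class medians were thus within 0.05 of 0, whereas single genes of the induced class differed by several fold, SER3 among them. Without heat-stressed wild type replicate 3, 993 genes were induced, 79 of them higher and 71 lower, and 954 were repressed, 64 of them higher and 17 lower. The response of each mutant, heat minus its own non-stressed libraries, had a median over the induced genes of 1.70 on the log2 scale in H4-T30D, 1.97 in H4-T30A and 2.1 in wild type, and over the repressed genes of -2.0, -2.20 and -2.23. For the wild type these medians are set by the choice of the classes, and the non-stressed levels of both classes differed between the mutants as well, as given next.

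Without stress the same contrast gave more calls, in libraries that are not shared with the heat contrast. Of the 6209 genes 1394 (22.5%) differed between non-stressed H4-T30D and H4-T30A, 804 higher (12.9%) and 590 lower (9.5%), and past 2-fold 139 were higher (2.24%) and 4 lower (0.0644%). The lower count was 366 without non-stressed H4-T30A replicate 2, and 373 and 371 without non-stressed H4-T30D replicates 1 and 3. Among the 5536 genes averaging 50 counts or more, the 5th and 95th percentiles of the log2 difference were -0.38 and 0.57 without stress and -0.30 and 0.34 upon heat. Of the 270 genes higher upon heat, 161 were also higher without stress (59.6%), which was 20.0% of the 804, and 99 were not called without stress. Of the 189 genes lower upon heat, 52 were also lower without stress (27.5%), which was 8.81% of the 590, and 113 were not called. Of the 43 genes higher past 2-fold upon heat, 35 were also called higher without stress.

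AAD6, SER3 and COS12 were far higher in H4-T30D without stress as well, with log2 differences of 3.03, 2.73 and 2.25, against 2.51, 2.40 and 2.25 upon heat. HUG1 (1.18), COS1 (0.88), AZR1 (1.19) and TAL1 (-0.88) also had non-stressed differences close to those upon heat. The lower genes VPS55 (-0.03), YPK2 (-0.05) and GCV2 (0.03) and the higher gene SUC2 (-0.07) had non-stressed differences near 0. The reverse held for the general stress genes, of which 23 of 35 were higher without stress and none lower, with a median of 0.57: DDR2 had a non-stressed difference of 1.96, HSP12 of 1.39 and HSP82, which is on the Hsf1 list, of 0.86. Of 137 cytosolic ribosomal protein genes 115 were lower without stress (median -0.38), and of the genes within 20 kb of an end 40.9% were higher. The median of the heat-induced class without stress was 0.20, with 313 genes higher and 30 lower, and that of the repressed class -0.16, with 30 higher and 266 lower.

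**Figure D5:**
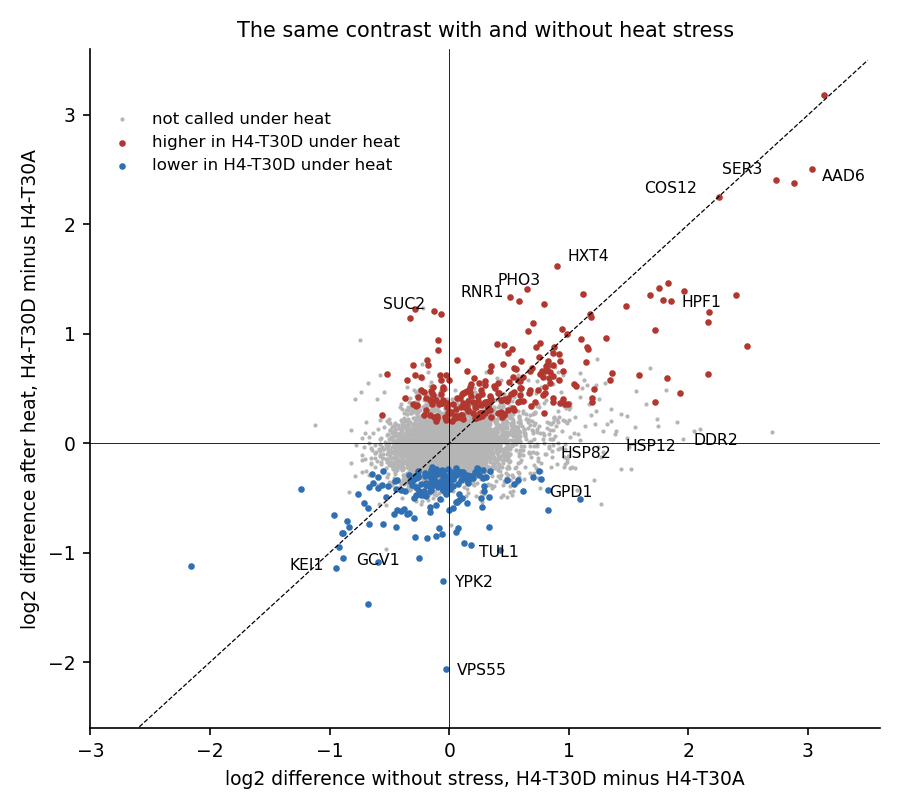
Each of the 5741 points is a gene with a mean of at least 2 CPM over the 6 heat-stressed libraries, placed by its log2 difference without stress (horizontal) and upon heat (vertical), with the dashed line where both are equal. Red and blue points were called higher and lower in H4-T30D upon heat. COS12 lies on the dashed line and AAD6 and SER3 a little below it, VPS55, YPK2 and SUC2 near the vertical axis, and DDR2, HSP12 and HSP82 near the horizontal axis.

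The interaction, that is, whether the difference upon heat itself differed from the difference without stress, was called for 560 genes (9.02%), 235 above 0 (3.78%) and 325 below 0 (5.23%). The count above 0 was 117 without heat-stressed H4-T30D replicate 3 and 138 without non-stressed H4-T30A replicate 2. Among the 270 genes higher upon heat, the interaction was called above 0 for 60 and below 0 for 17. Among the 189 lower genes, it was called below 0 for 63 and above 0 for 5. The interaction contains the same heat-stressed values that selected these genes, so its sign in them is not independent of the selection. Of the heat-induced class 17 were above 0 and 178 below, and of the repressed class 134 above and 7 below. RRP14, an essential nucleolar protein of ribosome synthesis, showed one of the largest differences above 0, with 50.6, 67.8 and 56.4 CPM in heat-stressed H4-T30D and 28.4, 25.6 and 20.6 CPM in heat-stressed H4-T30A (log2 difference 1.23 ± 0.21 upon heat, -0.29 without stress). The H4-T30D libraries were all above the H4-T30A libraries upon heat, and the gene was called upon heat but not without stress. YKL153W and YBR191W-A, which have no position here, were the other pair of the 3 largest above 0 and had at most 4.79 CPM in these libraries. The largest called interactions below 0 were in genes with few reads, YPR092W, YHR050W-A and ANS1, which had at most 2.27 CPM in the heat-stressed libraries and were not called upon heat.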

How the data were processed

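Poly(A) libraries (50 bp single-end reads, stranded kit) were deposited by the authors as raw counts of uniquely mapping reads per gene, without normalization, and the submitters' processing notes name TopHat2 2.1.0, featureCounts 1.5.1 and DESeq2 1.14.1. The strand setting of the counting is not given in the sources used here. Here genes were filtered with edgeR's filterByExpr (minimum count 10, 6209 of 6746 kept), scaled by TMM, and fitted with 1 mean per group over all 27 libraries by edgeR 4.0.16 in R 4.3.3 (common dispersion 0.00653, prior degrees of freedom 10.9). Contrasts were tested with glmQLFTest and the wild-type classes with glmTreat at a log2 threshold of 1, at a Benjamini-Hochberg adjusted p under 0.05. CPM use the TMM-scaled library sizes, computed with limma 3.58.1 loaded, and errors in the text are standard errors of the log2 difference. DESeq2 1.42.0 was an alternative, beside other scalings, filters, thresholds, sets of libraries, the replicate block and each library left out. The fit was tested on simulated data. Positions came from the RefSeq annotation of R64, the assembly of the counts, in which 6025 genes matched by locus tag, 31 by symbol and 690 not at all. Figures used matplotlib 3.10.9 under Python 3.11.

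The contrast, the gene lists and the alternatives were chosen with earlier results of these data known. Named genes were the 10 largest called differences past 2-fold in each direction (averaging 10 or more counts, groups not overlapping, which left 9 below 0), up to 4 called members of each list, the genes the study used as reporters or controls with the H3, H4 and marker genes, and the 3 largest called interactions in each direction. The members of the aryl-alcohol dehydrogenase family other than AAD6, and GCV2, GCV3, MTD1, ADE6, SUC2, HPF1, AZR1, TAL1, TUL1, RNR2, RNR3, YGP1, SIP18, HXK1, GRE3, FDC1, SRY1, FPK1 and the genes of the closing observations were named after their values were seen. Replicates are biological, as the study's methods state. Counts per gene limit the precision, and standard errors in the text cover the spread between these libraries only.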

Additional observations from a re-analysis of the deposited data

Results flagged for a closer look

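The difference between the mutants was itself different upon heat and without stress for the named genes below, by the interaction term of the same edgeR model (adjusted p under 0.05), which is what drew attention to them. Values are the log2 difference upon heat minus that without stress. No explanation was tested.

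Among genes higher in H4-T30D upon heat, the interaction was 1.51 in RRP14, 1.25 in SUC2, 1.15 in FUI1, 1.04 in RPL22B, 1.02 in ILV5, 0.95 in PNO1, 0.95 in RPA49, 0.82 in PHO3, 0.72 in HXT4, 0.71 in RNR1, 0.70 in IMD4, 0.69 in HXT2, 0.56 in RPS9A, 0.49 in PRE2 and 0.44 in RTN2. It was 2.01 in YKL153W, which had few reads, and 1.47 in RTT105 and 0.93 in OLE1. Without stress FUI1, ILV5, OLE1 and PRE2 were called lower in H4-T30D, while HXT4, RNR1, PHO3 and RTN2 were called higher by less than upon heat and the others were not called. For AAD6 it was -0.52, for YFL057C -0.50, for HPF1 -0.56 and for YGP1 -1.35, where the difference was larger without stress.

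Among genes lower in H4-T30D upon heat it was -2.03 in VPS55, -1.25 in ARO10, -1.21 in YPK2, -1.11 in TUL1, -1.09 in GPD1, -0.86 in IRA2, -0.82 in CIN5, -0.79 in GCV1, -0.77 in KDX1, -0.77 in PHM7, -0.62 in GCV2, -0.46 in ADE17, -0.45 in SRY1 and -0.44 in HXT5. For LEU1 and PRM5 both were lower and the interaction was 0.30 each, since the difference was larger without stress.

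Genes with no call upon heat had interactions of -3.20 in YPR092W, -2.73 in YHR050W-A, and -2.07 in ANS1, all with few reads, of 1.69 in YBR191W-A, which had few reads upon heat but 19.9 to 21.1 CPM in H4-T30A and 11.7 to 13.0 CPM in H4-T30D without stress, and of -1.91 in DDR2, -1.31 in HSP12, -1.17 in AAD4, -0.82 in HSP82, -0.53 in RNR3 and -0.52 in AAD10. The stress genes DDR2, HSP12 and HSP82 were higher in H4-T30D without stress and were not called after 10 min of heat.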

How the results depend on the processing

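None of the 97 named genes called upon heat reversed its direction under the alternatives run. The size of the counts depended on the scaling, the threshold and the libraries that shared the estimate of the spread. With library totals as the scaling, 219 genes were higher and 253 lower upon heat, 273 lower without stress, and interactions were 98 above and 619 below 0. Against a log2 difference of 0.5, the counts were 37 and 8 upon heat with 5 lower past 2-fold, 103 and 9 without stress, and 8 and 28 for the interaction. With the libraries of each contrast alone they were 427 and 339 upon heat, 1321 and 1240 without stress and 635 and 720 for the interaction, and DESeq2 on the same libraries gave 1055 lower without stress and 786 interactions above 0. DESeq2 on all libraries gave 328 and 190 upon heat and 414 interactions above 0, sharing 450 of the 459 calls. A fit of only the 12 libraries of both mutants, added after seeing the data, gave 565 and 505 and shared 457 of the 459 calls, and genes with a position and no overlapping gene gave 244 and 182.

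The median of the heat-induced class was -0.02179 with DESeq2 size factors, -0.02075 with upper-quartile scaling, -0.02202 with DESeq2 on all libraries, -0.0283 with a minimum count of 50, -0.02896 with DESeq2 on the contrast's libraries, and -0.08306 with library totals. That of the other genes was 0.001282, 0.002635, 0.000968, -0.005362 and -0.005994 in the same order, and -0.06056 with library totals. The median of the heat-repressed class was 0.06212, 0.06349, 0.06183, 0.05633 and 0.05637 in the same order. With library totals it was -4.943e-05, so its place above 0 depended on the scaling. All of these medians are within 0.1 of 0.

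With 1 library left out, the range was 183 to 227 higher and 119 to 159 lower upon heat, 37 to 47 and 7 to 11 past 2-fold, 589 to 666 and 366 to 482 without stress, and 117 to 236 and 226 to 309 for the interaction. Class medians were -0.04594 to -0.01575 for induced, 0.01866 to 0.0605 for repressed and -0.02083 to 0.000308 for other genes. Without heat-stressed wild type replicate 3, 285 genes were higher and 201 lower upon heat, 822 and 626 without stress, and 255 and 349 for the interaction. Of the 97 named genes called upon heat, 14 lost the call when some library was left out, and 83 kept it. Another scaling, filter, fit or tool lost 6 of the 97 calls, and the test against a log2 difference of 0.5 lost 66. Many named genes were picked for the size of their difference. Over all 459 calls, the fits with 1 of the 6 heat-stressed libraries left out shared 299 to 351.

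With the replicate number as a block, 263 genes were higher and 178 lower upon heat, and 432 of the 459 calls were shared. The numbers did not pair the libraries: deviations of same-numbered heat libraries correlated at -0.11, 0.04 and 0.04, and those of other pairs at -0.10 to 0.07. The counts without stress with the block were 782 and 579, and for the interaction 227 and 315. At 3 libraries per group and these depths, differences of low-count genes were the least precise.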

Other observations

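A few further genes, chosen after their values were seen, stood out by level and are given with no explanation. OLE1, the fatty acid desaturase, had 340, 294 and 348 CPM in heat-stressed H4-T30D and 228, 215 and 215 CPM in heat-stressed H4-T30A (log2 difference 0.58 ± 0.10, adjusted p = 0.00020), whereas it was lower in H4-T30D without stress (-0.35, adjusted p = 0.0096). ARO10, a decarboxylase of aromatic amino acid breakdown, went the other way, with 734, 677 and 678 CPM against 963, 928 and 913 CPM upon heat (-0.42 ± 0.07, adjusted p = 6.9e-05) and a difference of 0.82 without stress. RTT105, a chaperone of the single-stranded DNA binding protein RPA, had 9.06, 10.9 and 11.0 CPM against 3.78, 5.29 and 4.90 CPM (1.15 ± 0.14, adjusted p = 1.7e-06).

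AMD2, a putative amidase, had 14.2, 12.5 and 12.9 CPM against 22.3, 22.1 and 25.4 CPM (log2 difference -0.82 ± 0.11, adjusted p = 7.3e-06). DDI2 and DDI3, cyanamide hydratases that are near-identical and subtelomeric, had 3.92, 3.54 and 3.41 CPM against 2.13, 1.36 and 1.52 CPM (1.11 ± 0.23, adjusted p = 0.0015) and 3.92, 4.15 and 3.57 CPM against 1.24, 1.89 and 1.59 CPM (1.31 ± 0.25, adjusted p = 0.00058), and their reads cannot be assigned to either copy with certainty.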
